A study of Mus musculus with 60 samples.

Results

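The 100 genes described here were those whose striatal signal stood highest at 8 h relative to 1 h. They were chosen from the authors' processed table: among 9957 of 19057 genes on the arrays, those with a probe whose mean log2 signal over all 60 arrays was 8 or more, the probe with the highest mean stood for each gene, and the genes were ordered by the mean of the 15 arrays of 8 h minus the mean of the 15 arrays of 1 h, whatever the condition. Genes of the circadian clock and its closest outputs (Ciart, Dbp, Nr1d1, Nr1d2, Tef, Hlf, Per1, Per2, Per3, Cry1, Cry2 and Clock) and the ion channel gene Ano2 had been set aside beforehand. Being higher at 8 h than at 1 h is therefore how the genes were picked and not a result. What can be asked of them is whether naive mice, which received no injection, showed the same course as injected mice, and how the genes behaved at 2 h and 4 h, whose arrays entered the choice through the minimum mean and the choice of probe but not through the difference itself.

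RNA came from the striatum, taken as rostral caudate putamen with nucleus accumbens, of C57BL/6J mice whose labelled age was 6 to 10 weeks. The naive mice had no injection, and the other mice had 1 intraperitoneal injection of saline, imipramine at 10 mg/kg, fluoxetine at 20 mg/kg or tianeptine at 20 mg/kg. Striata were taken 1, 2, 4 or 8 h later, with naive mice taken alongside, and each of the 20 groups had 3 arrays with RNA of 2 mice pooled on each. All animals were of the same strain without any mutation, and the drugs were given once, so that the arrays say nothing on repeated treatment. Times after injection were also times of day: in injected mice these cannot be told apart, and naive mice carry the time of day without the injection. Every value below is a log2 signal, quantile normalised between arrays, or a difference of such signals, so that a difference of 1 is a 2-fold change. In whole tissue, fewer cells of a type and less RNA per cell cannot be told apart.

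The striatum is the input station of the basal ganglia, built mostly of medium spiny neurons, with interneurons, glia and vessels between them. An injection is a brief stress for a mouse: the adrenal gland releases corticosterone, and the glucocorticoid receptor in neurons, glia and endothelium then switches on genes such as Fkbp5, whose product restrains that receptor, and Plin4, whose product coats lipid droplets. Independently of any injection, a clock in each cell drives daily rhythms through activators that bind E-boxes and through their target transcription factors, body temperature changes through the day and with it cold-inducible RNA-binding proteins such as Cirbp, and feeding and rest shift metabolic genes.

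Of the 12 markers of medium spiny neurons with a probe, 11 had a mean signal of 8 or more, and 0 passed the test between injected and naive mice, with 9 of the 12 lower by sign in injected mice. The 60 arrays lay on 10 chips of 6, each with arrays of 1 h and of 8 h, but not in equal numbers. Some chips held more arrays of 1 h and 2 h than of 4 h and 8 h, and the others held the reverse. Differences of 8 h from 1 h and of 4 h from 2 h, pooled over conditions, were thus partly tied to chip. No chip held naive arrays of both 1 h and 8 h, and the same was true of each injected condition, so that the change within a condition was measured between chips. Arrays of the same group correlated at 0.977 to 0.993, and 0 pairs of arrays were identical.

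The selection value ran from 0.91 for Plin4 down to 0.21 for Pus10, a pseudouridine synthase gene. After Plin4 came Inmt (an N-methyltransferase of indole amines) at 0.75, Hif3a (a hypoxia-inducible factor subunit) at 0.70, Ccno (a cyclin family member) and Rasl11b (a small GTPase of the Ras family) at 0.58 each, and Cirbp (a cold-inducible RNA-binding protein) at 0.48. The next were Arhgef39 (a guanine nucleotide exchange factor) at 0.44, Usp2 (a deubiquitinase that is itself a clock output) at 0.43, Prrt4 (a proline-rich transmembrane protein) at 0.42 and Ifit3 (an interferon-induced protein) at 0.40. Tspan4 (a tetraspanin) and Zfp46 (a zinc finger protein) stood at 0.37, Ephx1 (an epoxide hydrolase) at 0.35, and Strip2 and Lrrtm1 (a synaptic adhesion protein) at 0.34. At the lower end the choice was a thin one: the last genes inside, Nrn1l, Sun2 and Pus10, had 0.215, 0.214 and 0.214, and the first ones outside, Fam117a, St6galnac3 and Ncapd3, had 0.214, 0.213 and 0.212. Of the genes set aside, 11 had a bright enough probe and 6 of these would have entered, with Ciart at 1.06, Dbp at 0.75, Ano2 at 0.71, Nr1d1 at 0.51, Nr1d2 at 0.47 and Per3 at 0.30.

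The list was firm at its top and loose at its bottom. When 1 array of 1 h or 8 h was left out and the choice repeated, 52 genes stayed among the 100 in all 30 repeats, and 41 stayed when each of the 5 conditions was left out in turn. Plin4, Inmt and Ifit3 were among those kept throughout, while Pus10 stayed in 11 of the 30 repeats. In 31 of the genes another probe had a mean of 8 or more. Of these 41 probes 34 were also higher at 8 h, with a median of 0.15, where 51.3% of bright genes were higher. With dimmer probes included, 77 of 99 were higher. All were read on the arrays that chose the genes, so that they are no independent check. These probe values are fitted differences, which differ somewhat from the selection values given above. The second probe of Rasl11b gave 0.54 beside 0.55, that of Tfrc 0.30 beside 0.32, that of Ifit3 0.38 beside 0.45 and that of Inmt 0.47 beside 0.77. A second probe of Hif3a, at a mean of 8.03, gave -0.08 beside 0.76, so that its probes disagreed.

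**Figure D1:**
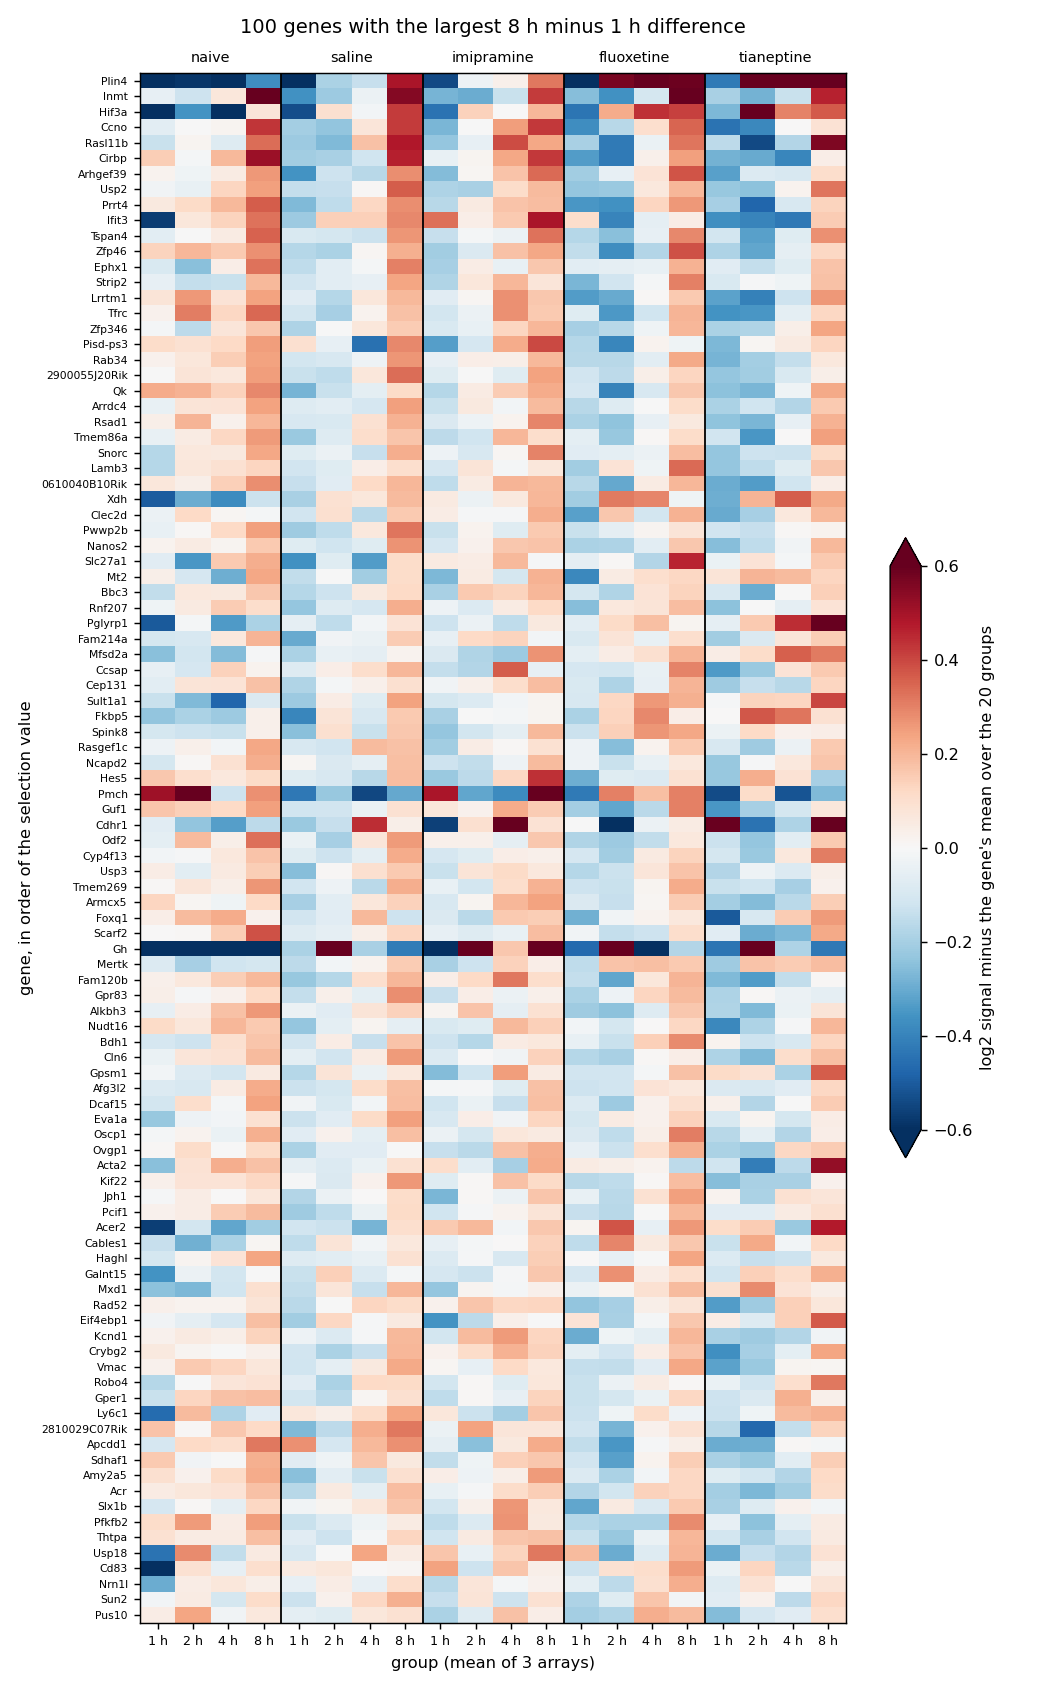
The 100 genes (rows, in the order of the selection value) in the 20 groups (columns, 5 conditions by 4 times), as the mean log2 signal of 3 arrays minus the gene's mean over all groups; colours end at -0.6 and 0.6. The 8 h column is the reddest of most blocks, as it must be from the choice, and the naive columns of Plin4 and Xdh are blue at all 4 times.

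Sorted by what their products are known for, a sorting made with the values in view, the genes did not form 1 pathway. The 2 largest known groups were 17 genes of metabolic enzymes and carriers and 13 of small GTPase and receptor signalling. Next came 12 genes of transcription and RNA, 11 of the cell cycle, DNA repair, centrosome and nucleus, and 10 of synapse, channels and cell surface. Smaller groups held 6 glucocorticoid-responsive genes, 5 of interferon and innate immunity, 5 of the vessel wall, 2 of clock output and temperature response (Usp2 and Cirbp) and 2 peptide hormones (Gh and Pmch). For 17 genes no role was assigned. The genes lay on many chromosomes, at most 12 on any 1 of them.

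The first comparison asked whether the course depended on the injection. Most of the 100 genes were also higher at 8 h than at 1 h in naive mice: 93 had a positive fitted difference there, with a median of 0.22, against 100 with a median of 0.29 in injected mice. The fit takes the chips into account. Plain differences of array means gave 91 positive with a median of 0.23 in naive mice, and 100 with 0.28 in injected mice. Since the naive arrays took part in the choice, these values are a description. Per condition the median was 0.31 in saline, 0.26 in imipramine, 0.31 in fluoxetine and 0.30 in tianeptine mice, and 87 genes had a positive difference in all 5 conditions.

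The choice was also made with 1 condition left out of the selection value and then described in that condition. The 2 steps were not independent: arrays of the condition left out shared chips with arrays used to choose, arrays of the same chip correlated at 0.43 in their deviations from the group means, and the minimum mean and the probe came from all arrays. When 100 genes were chosen on injected mice alone, 81 of them were higher at 8 h in naive mice, with a median of 0.12, where 51.1% of all bright genes were higher with a median of 0.00. Chosen without saline arrays, 94 of 100 were higher in saline mice with a median of 0.28. The same count was 89 with a median of 0.18 for imipramine, 88 with 0.25 for fluoxetine and 87 with 0.17 for tianeptine, against 48.8% to 52.2% of all bright genes. The naive mice thus had the lowest count and the lowest median of the 5 conditions.

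No gene's change from 1 h to 8 h passed a test of the difference between injected and naive mice. By limma, 0 of the 100 genes and 0% of all 45281 probes passed an adjusted p of 0.05, with 9 of the 100 genes and 3.66% of bright genes under an unadjusted p of 0.05. Plain analysis of variance also gave 0. Among the 100, the change was larger in injected mice for 73, with a median excess of 0.13, against 49.5% of bright genes and a median of 0.00. Plin4 had the smallest p, with fitted values of 1.19 in injected and 0.18 in naive mice, an excess of 1.01 with a standard error of 0.32 (adjusted p = 0.89). Its naive arrays read 8.24, 8.19 and 8.17 at 1 h and 8.78, 8.29 and 8.60 at 8 h, a larger plain difference than the fitted one. For saline alone against naive mice, 0 genes passed and 13 had an unadjusted p under 0.05 (4.27% of bright genes), with a median excess of 0.14. The typical standard error of such a difference was 0.15 for all injected mice and 0.19 for saline, as large as the excess itself, so that an effect of that size was not detectable with 3 naive arrays at each time.

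**Figure D2:**
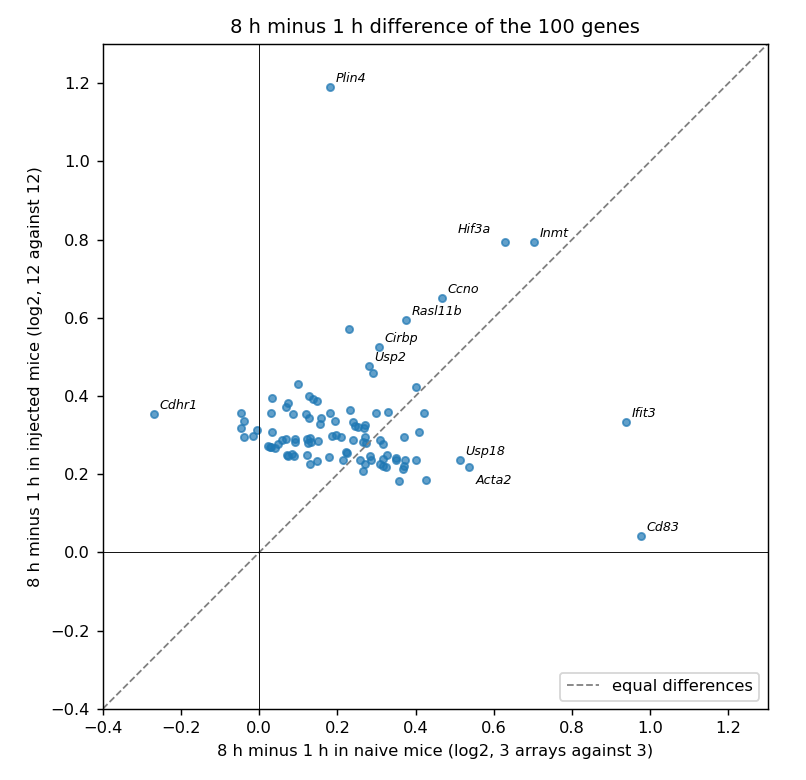
Each point is 1 of the 100 genes, with the fitted 8 h minus 1 h difference in naive mice (x axis, log2, 3 arrays against 3) and in injected mice (y axis, log2, 12 against 12); the dashed line marks equal differences. Plin4 stands at 0.18 and 1.19, Cd83 at 0.98 and 0.04, and 73 of the 100 points lie above the line.

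The 5 genes with the largest difference in naive mice were Cd83 (a surface protein of activated immune cells) at 0.98, Ifit3 at 0.94, Inmt at 0.70, Hif3a at 0.63 and Acta2 (smooth muscle actin) at 0.54. The 5 with the smallest were Cdhr1 (a photoreceptor and olfactory cadherin) at -0.27, Sult1a1 (a sulfotransferase) and Crybg2 at -0.05 each, and Hes5 (a target of Notch signalling) and 2810029C07Rik at -0.04 each. These are fitted values. By array means the lowest was Pmch at -0.23, and Sult1a1 stood at 0.05. Cd83 owed its place to 1 array. Its naive signals at 1 h were 9.02, 9.07 and 6.50, and at 8 h 9.04, 9.30 and 9.21. Without the lowest array the naive difference of means fell from 0.99 to 0.14 and that over all conditions from 0.24 to 0.07, below the value needed to enter. The naive differences of means of Ifit3 and Acta2 also leaned on 1 array: they were 0.89 and 0.42, and 0.40 and 0.17 without replicate 3 and replicate 1 of the naive 8 h group.

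Injected and naive mice also differed in level. Averaged over the 4 times, 12 of the 100 genes passed the threshold, 7 higher and 5 lower in injected mice, where 0.157% of all probes and 0.522% of bright genes passed. Leaving out replicate 2 of the naive 8 h group reduced the 12 to 7. By sign, 73 of the 100 were lower in injected mice, with a median of -0.06, while the median of all bright genes was 0.00. This contrast compares conditions at equal times and so is not tied to the selection value. Markers of some cell types lay in the same direction by a similar or smaller amount: 10 of 12 oligodendrocyte markers were lower by sign (median -0.06), 7 of 9 interneuron markers (median -0.06) and 9 of 12 medium spiny neuron markers (median -0.04). Of these 3 lists 1 marker passed the test, Opalin, a myelin protein gene of oligodendrocytes, at -0.29 (adjusted p = 0.018). Cortical excitatory neuron markers lay the other way, with 10 of 11 higher by sign (median 0.09) and 0 past the test. Among the other lists, ependymal (8 of 9, median -0.03) and erythroid markers (4 of 4, median -0.05) were lower by sign. Choroid plexus (8 of 11, median 0.05) and neutrophil markers (6 of 8, median 0.09) were higher by sign. The part of these markers in the result was not tested.

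Of the 7 higher genes, 5 stood on the list of glucocorticoid-responsive genes. That list was drawn up with earlier results of these arrays known. The study's paper places Fkbp5, Sult1a1 and Xdh in a drug-responsive gene network. The overlap is therefore a description and not an independent result. Plin4 had naive signals between 7.87 and 8.98 (median 8.18, 12 arrays) and injected signals between 7.88 and 10.76 (median 9.05, 48 arrays), so that the groups overlapped. At 1 h its naive arrays read 8.24, 8.19 and 8.17 and the injected ones 7.88 to 8.68, and at 4 h the naive arrays read 8.10, 7.87 and 7.90 and all 12 injected arrays lay above them, from 8.60 to 10.76. The averaged difference was 0.82 with a standard error of 0.11 (adjusted p = 4.9e-06), and 42 of 48 injected arrays exceeded the naive mean of their time.

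Xdh, which makes uric acid from xanthine, differed by 0.42 with a standard error of 0.07 (adjusted p = 0.0016), with naive arrays from 7.81 to 8.55 and injected arrays from 7.98 to 9.48. Hif3a differed by 0.48 ± 0.09 (SE, adjusted p = 0.0064). It was at 8.46 ± 0.26 (SD, n = 3) in naive and 8.65 ± 0.24 (SD, n = 12) in injected mice at 1 h, but at 8.44 ± 0.18 and 9.25 ± 0.34 at 4 h. By 8 h the naive arrays had reached 9.40, 8.62 and 9.42, within the injected range of 9.04 to 9.93 except for 1 array below it. A second bright probe of Hif3a gave a difference of 0.01 (adjusted p = 0.99) and so did not show it. Sult1a1 was higher by 0.30 (adjusted p = 0.043), and its call was lost in 28 of the 60 fits that left out 1 array. Fkbp5 was higher by 0.19 (adjusted p = 0.018), with naive arrays at 2 h of 9.58, 9.62 and 9.56 below all 12 injected arrays, 9.65 to 10.28. The metallothionein gene Mt2, the remaining gene of that list among the 100, differed by 0.03 and did not pass.

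The other 2 higher genes were Acer2, an alkaline ceramidase of the Golgi, by 0.37 (adjusted p = 0.0019), and Pglyrp1, a peptidoglycan recognition protein of innate immunity, by 0.35 (adjusted p = 0.02). Acer2 already differed at 1 h, where naive arrays read 8.94, 8.70 and 9.05 and injected arrays 9.06 to 9.82. Those groups nearly touched (9.054 against 9.060), and the single-time test did not pass (difference 0.56, adjusted p = 0.18). Gaps between the arrays of 1 gene at 1 time, here and elsewhere in the text, were not counted over all genes.

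The 5 lower genes were Qk, Cirbp, Zfp46, Tfrc and Prrt4. Qk, an RNA-binding protein that guides splicing in myelinating glia, was lower by 0.26 (SE 0.05, adjusted p = 0.0019), with naive arrays from 9.83 to 10.23 and injected arrays from 9.23 to 10.17. The average of the 12 oligodendrocyte markers was 11.91 to 12.11 on naive and 11.81 to 12.07 on injected arrays, with Opalin lower as given above, and its part in the difference of Qk was not tested. For Qk, only 4 of 48 injected arrays exceeded the naive mean of their time. Cirbp read 10.93, 10.94 and 10.81 in naive mice at 1 h, beside an injected range of 10.30 to 10.81. The lowest naive array (10.813) and the highest injected one (10.809) were nearly equal. Its averaged difference was -0.26 (SE 0.05, adjusted p = 0.0052). Zfp46 was lower by 0.24 (adjusted p = 0.0054), the transferrin receptor gene Tfrc by 0.25 (adjusted p = 0.016), and Prrt4 by 0.23 (adjusted p = 0.013). A second bright probe of Tfrc gave -0.22 (adjusted p = 0.017).

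The 12 genes were also described chip by chip. Each array was set against the mean of its time, and injected and naive arrays of the same chip were compared on all 10 chips. On 6 chips a naive and an injected array shared a time, and on the others the comparison rests on time means taken across chips. The genes had been called on these same arrays, so that most signs had to match and the counts are a description. Plin4, Pglyrp1, Zfp46, Tfrc and Qk had the stated sign on all 10 chips. Xdh, Acer2, Cirbp and Prrt4 had it on 9, Hif3a and Fkbp5 on 8 and Sult1a1 on 7. With chip as a fixed block, 18 of the 100 genes passed, and without any chip term 3 did.

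**Figure D3:**
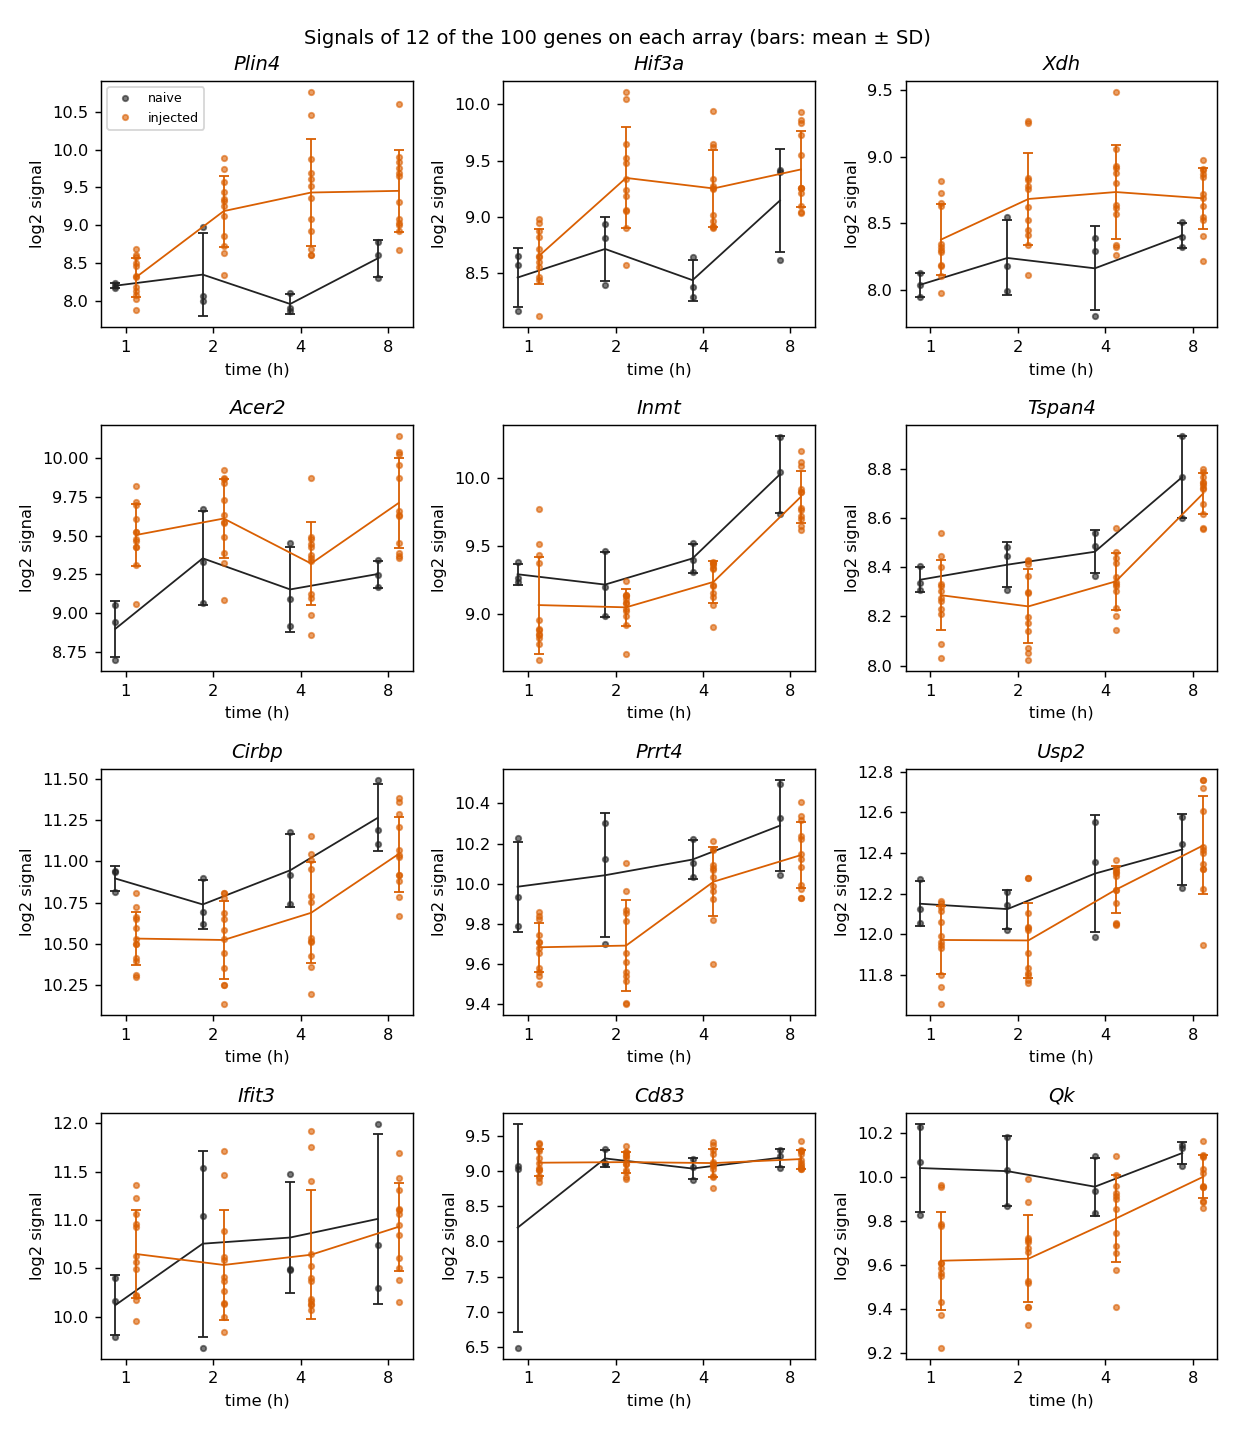
Log2 signal on each array of 12 of the 100 genes at 1, 2, 4 and 8 h in naive mice (black, 3 arrays a time) and injected mice of all 4 kinds (orange, 12 arrays a time), with lines through the means and bars of 1 SD. Naive Plin4 stays between 7.87 and 8.98 while injected signals reach 10.76, Qk and Cirbp start lower in injected mice, and the wide bar of Cd83 at 1 h comes from 1 naive array at 6.50.

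By sign and median, the gap between injected and naive mice was wider at 1 h and 2 h than at 4 h and 8 h. At 1 h 77 of the 100 were lower in injected mice with a median of -0.12, at 2 h 72 with -0.11, at 4 h 62 with -0.03 and at 8 h 57 with -0.02. All bright genes had medians between -0.01 and 0.00 at these times. The gap at 8 h minus that at 1 h is the difference in change between injected and naive mice given above. That difference passed for 0 genes, so that the narrowing from 1 h to 8 h is no further result. At each time all 100 genes share the same 3 naive arrays. At 1 h 0 of the 100 genes passed the test, where 0.0221% of all probes did, and 30 had an unadjusted p under 0.05 (8.07% of bright genes). The smallest adjusted p was 0.12, for Qk at -0.43 and for Cd83 at 0.92, the latter through the array named above. Leaving out replicate 1 or replicate 2 of the naive 1 h group, or replicate 1 of the tianeptine 4 h group, let 1 gene pass. At 8 h 0 genes and 0% of probes passed, with 6 of the 100 under an unadjusted p of 0.05 (2.32% of bright genes), and Plin4 had the smallest p, at 0.94 (adjusted p = 0.51). At 2 h 0 genes passed, against 0.00883% of probes, with 33 of the 100 under an unadjusted p of 0.05 (8.76% of bright genes). The 100 include Gh, which its arrays of 2 h brought into the list. At 4 h 11 of the 100 had an unadjusted p under 0.05 (3.45% of bright genes). At that time 1 gene passed, against 0.00663% of probes: Plin4, with a difference of 1.5 (adjusted p = 8.1e-04). Leaving out replicate 3 of the naive 4 h group ended that call (adjusted p = 0.051) and left 0 genes. At 1 h the fitted difference of Plin4 was -0.07, while its array means were 8.31 in injected and 8.20 in naive mice. The 2 h count was 2 without replicate 1 of the imipramine 8 h group, and 1 without replicate 2 or 3 of that group, replicate 3 of the imipramine 1 h or naive 1 h group, replicate 2 of the imipramine 2 h group, replicate 1 of the naive 2 h group or any array of the tianeptine 2 h group.

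**Figure D4:**
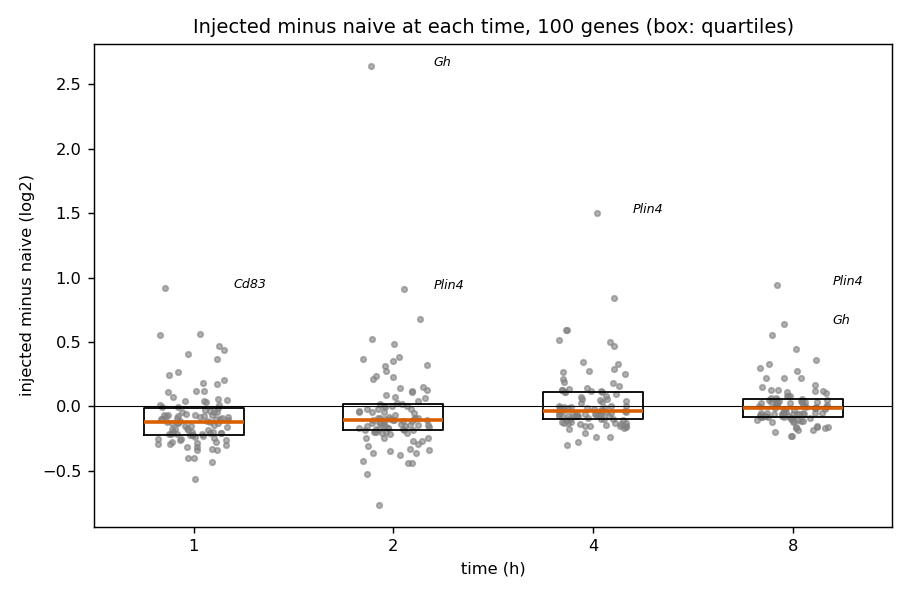
Injected minus naive difference (y axis, log2) of each of the 100 genes at 1, 2, 4 and 8 h; boxes span the quartiles and the orange line is the median, which runs from -0.12 at 1 h through -0.11 and -0.03 to -0.02 at 8 h. The highest point is Gh at 2 h with 2.64, a gene that its arrays of 2 h brought into the list.

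Each injected condition was also set against naive mice by itself. The counts below are not a test of 1 injection against another, and no drug was tested against another drug. Against naive mice over the 4 times, tianeptine moved 25 of the 100 genes past the threshold, where 0.671% of all probes, dim ones included, passed. Of these genes 10 were higher (among them Gh, which its arrays of 2 h brought into the list) and 15 lower. With tianeptine 61 of the 100 had an unadjusted p under 0.05, against 14.1% of bright genes. Fluoxetine moved 7, 4 higher and 3 lower, against 0.064% of probes, with 48 of the 100 under an unadjusted p of 0.05 (9.1% of bright genes). Imipramine and saline moved 0, against 0.00221% and 0.00883% of probes, with 15 and 33 of the 100 under an unadjusted p of 0.05 (3.29% and 6.41% of bright genes). These comparisons share the naive arrays. They were added once the pooled comparison had been seen. The fluoxetine count was 4 without replicate 1 of its 4 h group, replicate 3 of its 1 h group or replicate 2 of the naive 4 h or 8 h group. The imipramine count was 2 without replicate 1 of the fluoxetine 8 h group and 1 without replicate 1 of the tianeptine 4 h or replicate 2 of the naive 2 h group. The saline count was 1 without any of 12 arrays: naive 1 h replicate 1 and 2 h replicate 2, saline 1 h replicate 3, imipramine 1 h replicates 1 and 3, 4 h replicate 3 and 8 h replicates 1 and 3, fluoxetine 1 h replicate 2, and tianeptine 1 h replicate 2 and 4 h replicates 1 and 3.

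The difference of Plin4 from naive mice was 0.45 with saline and 0.60 with imipramine, which did not pass, and 1.1 with fluoxetine and 1.14 with tianeptine, which did, each with a standard error of 0.13. That of Cirbp was -0.23 with saline and -0.04 with imipramine, which did not pass, and -0.32 with fluoxetine and -0.44 with tianeptine, which did (SE 0.06). Among the genes past the threshold with tianeptine and not with the other injections were Mfsd2a, the carrier of omega-3 lipids at the blood-brain barrier, at 0.37, Mxd1, a repressor that pairs with Max, at 0.24, and Lrrtm1 at -0.30. With fluoxetine their values were 0.24, 0.18 and -0.26, and none of them passed the test of tianeptine against saline. Against saline over the 4 times, tianeptine moved 2 genes, Fkbp5 by 0.27 (adjusted p = 0.034) and Plin4 by 0.69 (adjusted p = 0.036), where 0.0265% of probes passed. In that comparison 27 of the 100 had an unadjusted p under 0.05 (6.14% of bright genes). Imipramine and fluoxetine moved 0 and 0% of probes, with 12 and 11 of the 100 under an unadjusted p of 0.05 (4.26% and 2.94% of bright genes). The count of 2 was 0 or 1 without any of 19 arrays: all 3 of tianeptine 2 h, of tianeptine 8 h and of saline 4 h, replicates 1 and 3 of tianeptine 1 h, 1 and 2 of tianeptine 4 h, 1 and 2 of saline 1 h, 2 and 3 of saline 2 h, and 1 and 3 of saline 8 h.

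The change from 1 h to 8 h passed no test of drug against saline in any of the 100 genes. For each of imipramine, fluoxetine and tianeptine against saline, 0 genes and 0% of probes passed, with 6, 0 and 6 genes under an unadjusted p of 0.05 (2.29%, 2.67% and 3.47% of bright genes). The medians of the differences were -0.09, -0.02 and -0.04, each with a typical standard error of 0.19. An F test of that change across all 5 conditions also gave 0 genes and 0% of probes, with 7 of the 100 genes under an unadjusted p of 0.05 (2.53% of bright genes). Its smallest p were those of Crybg2, Plin4 and Foxq1.

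**Figure D5:**
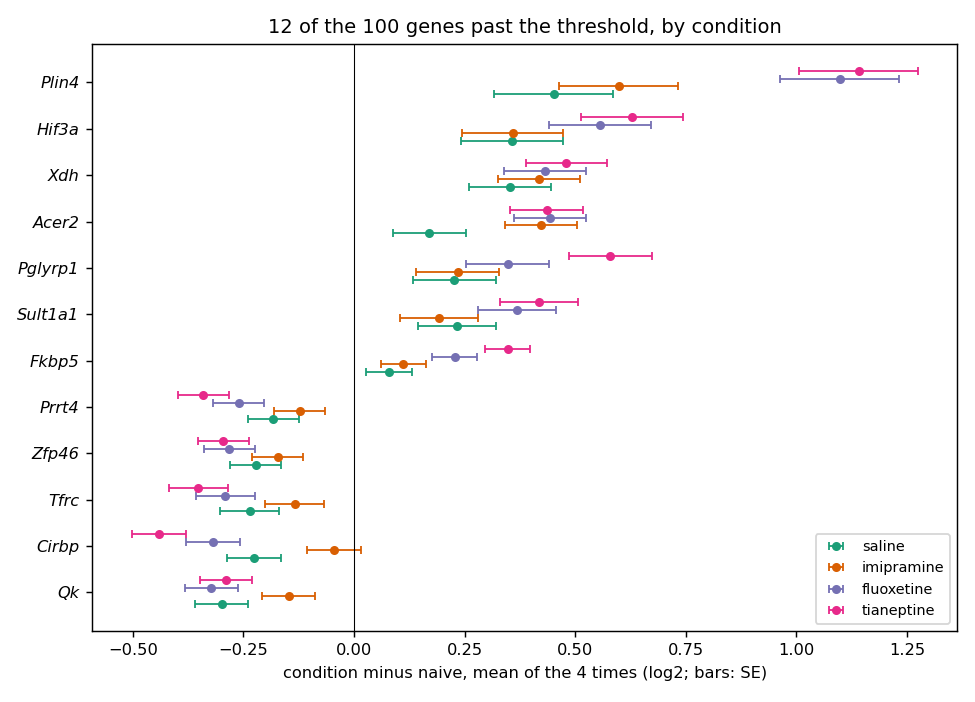
The 12 genes that differed between injected and naive mice, with the difference of each injected condition from naive mice averaged over the 4 times (x axis, log2; bars are standard errors of the fit). For Plin4 fluoxetine (1.1) and tianeptine (1.14) lie right of saline (0.45) and imipramine (0.60), and for Cirbp imipramine (-0.04) lies nearest 0.

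The arrays of 2 h and 4 h had no part in the selection value but counted in the choice of each gene's probe and in the minimum mean of 8. Without the arrays of 2 h 1 of the 100 genes, Gh, would have missed that minimum, and without those of 4 h 0 would have. Chips with more arrays of 1 h also held more of 2 h, and those with more of 8 h held more of 4 h. Chip differences that helped choose the genes could thus also raise 4 h above 2 h, and their part in the counts below was not tested. The 4 h minus 2 h difference was positive in 84 of the 100 genes, with a median of 0.08, where it was positive in 49.6% of bright genes and the median was 0.00. In naive mice it was positive in 56 with a median of 0.01, and in injected mice 83 with a median of 0.10, a difference that was not tested. Of the 100, 3 passed the test, Gh among them, where 0.0861% of all probes and 0.251% of bright genes did. Prrt4 rose by 0.27 (SE 0.05, adjusted p = 0.012), from 9.70, 10.30 and 10.12 to 10.03, 10.22 and 10.10 in naive mice and from a median of 9.63 to 10.05 in injected mice, so that the naive arrays overlapped. Tmem86a, a lysoplasmalogenase, rose by 0.23 (SE 0.05, adjusted p = 0.023), with naive arrays at 10.37, 10.15 and 10.53 and then 10.45, 10.46 and 10.38, and injected medians of 10.19 and 10.39. The clock-controlled Usp2 differed by 0.25 (adjusted p = 0.07) and Ccno by 0.25 (adjusted p = 0.084), which did not pass.

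Gh, the growth hormone gene, had a 4 h minus 2 h value of -1.39 (SE 0.29). It reached the minimum mean of 8 through its arrays of 2 h, with a mean of 8.15 over all arrays and 7.82 without them in the table used for the choice, so that a high signal at 2 h was part of how it was chosen and this value is a description. The count of 3, Gh included, was 1 without replicate 2 of the naive 2 h, naive 4 h or fluoxetine 4 h group, replicate 3 of the tianeptine or saline 4 h group or replicate 1 of the imipramine 4 h group. It was 5 without replicate 2 of the imipramine 8 h group and 6 without replicate 1 of the tianeptine 4 h group. The naive arrays of Gh at 2 h read 7.36, 7.22 and 7.5, and all 12 injected arrays lay above them, from 8.15 to 15.01 with a median of 9.28. The highest of these was replicate 3 of the tianeptine group, without which the difference of means went from -1.42 to -1.0. At 1 h and 4 h the injected medians were 7.57 and 7.62, close to the median of all probes (7.57). Gh had entered the 100 through a few arrays: without replicate 2 of the imipramine 8 h group, at 10.75, its 8 h minus 1 h difference was 0.05.

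The middle times could also lie above or below the line between 1 h and 8 h. For 71 of the 100 genes they lay below the mean of the end points, with a median of -0.05, where 49.4% of bright genes lay above it. Past the threshold were 3 genes, all below, where 0.0905% of probes and 0.251% of bright genes passed. The count was 5 without replicate 2 of the tianeptine 2 h group or replicate 1 of the fluoxetine 8 h group. Inmt lay 0.33 below (SE 0.05, adjusted p = 2.8e-04), and its second bright probe 0.27 below (adjusted p = 0.002). Its naive arrays read 9.38, 9.24 and 9.27 at 1 h, 8.99, 9.46 and 9.20 at 2 h, 9.31, 9.53 and 9.40 at 4 h and 10.04, 10.30 and 9.74 at 8 h. The 12 injected arrays had medians of 8.89, 9.08, 9.27 and 9.84. The arrays of 8 h stood apart from all earlier ones in naive mice. In injected mice, where the lowest 8 h array was at 9.62, all but 1 earlier array were below that. Inmt was chosen for the distance of 8 h from 1 h on these arrays, so that this separation is a description.

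Tspan4 lay 0.19 below (SE 0.03, adjusted p = 5.2e-04). Its naive arrays were between 8.31 and 8.54 up to 4 h and at 8.93, 8.77 and 8.60 at 8 h, and its injected arrays had a median of 8.34 at 4 h and 8.73 at 8 h. Cirbp lay 0.19 below (SE 0.04, adjusted p = 0.014), with naive means of 10.90, 10.74, 10.95 and 11.26 and injected means of 10.53, 10.52, 10.69 and 11.04 at the 4 times. Fkbp5 was among those above, at 0.14 (adjusted p = 0.086, not past the threshold), with its highest mean at 2 h. Over all conditions 96 of the 100 genes had their highest mean at 8 h, and their lowest was at 1 h for 76 and at 2 h for 22. A high mean at 8 h and a low one at 1 h follow largely from the choice, so these counts are a description.

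The interferon-induced genes Ifit3 and Usp18 varied widely between arrays of 1 group. Ifit3 read 10.40, 9.79 and 10.16 in naive mice at 1 h and 10.74, 10.29 and 12 at 8 h, and in injected mice it ranged from 9.95 to 11.36 at 1 h and from 10.15 to 11.70 at 8 h. The times overlapped. Usp18, the protease that removes the ubiquitin-like ISG15, was highest on arrays where Ifit3 was high as well. Its top signal, 9.74, was on a naive 2 h array with Ifit3 at 11.54, and the next, 9.72 and 9.54, were on fluoxetine arrays of 8 h and 4 h with Ifit3 at 11.44 and 11.41. It was at 9.47 on the saline 4 h array with Ifit3 at 11.92. Neither gene differed between injected and naive mice over the 4 times, with 0.06 and 0.11.

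Pmch, the precursor of melanin-concentrating hormone, which is made in the hypothalamus, and Cdhr1 likewise varied by array. Pmch read 7.63, 8.23 and 10.13 in naive mice at 1 h and 7.81, 7.72 and 11.52 at 2 h, and its signals over the 60 arrays spanned 4.09. Cdhr1 spanned 3.26 and Gh 7.97, against 2.90 for Plin4, the gene with the largest selection value.

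The vessel wall genes did not move as a group of vessel markers. Ly6c1, an endothelial surface protein, had a selection value of 0.22, Robo4, an endothelial guidance receptor, 0.22, Mfsd2a 0.27 and Acta2 0.23. Of the 12 endothelial markers with a probe, 4 were higher at 8 h than at 1 h, and 1 passed the test in each direction, against 1.33% of all probes. Their mean signal was 9.71 to 10.13 at 1 h and 9.69 to 10.07 at 8 h. The mural and meningeal markers, with Acta2 among them, were at 8.94 to 9.43 and 8.97 to 9.41, with 0 of 14 past the test. The astrocyte markers were higher in 11 of 12 with a median of 0.07 and 0 past the test, at 11.49 to 11.84 and 11.55 to 11.91. The average of the 11 choroid plexus markers on an array was 8.15 to 10.44 at 1 h (median 8.49) and 8.35 to 9.04 at 8 h (median 8.46), with 0 of the 11 past the test.

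Genes of the same and other pathways outside the 100 were read in the same way. Of 25 glucocorticoid-responsive genes 6 were among the 100. Among the 19 others 0 were higher and 3 lower at 8 h than at 1 h past the test (Pdk4, Errfi1 and Dusp1), where 1.33% of all probes passed. In the level over the 4 times 23 of the 25 were higher in injected than in naive mice, 10 past the test and 0 lower past it, with a median of 0.23, where 0.157% of all probes passed. Of the 19 outside the 100, 17 were higher and 5 passed (Tsc22d3, Sgk1, Cdkn1a, Gjb6 and Dusp1), beside 6 and 5 of the 6 members. Immediate early genes held no member: 19 of 33 were lower at 8 h than at 1 h past the test, with a median of -0.23, and 12 were higher in injected than in naive mice past the test. Past the same test 7 of 19 heat shock genes were lower at 8 h and 0 higher, with 2 of the 19 higher by sign, and 6 of 17 chaperones of the endoplasmic reticulum were lower, with 3 of the 17 higher by sign. Of 18 clock-related genes outside those set aside, 2 were higher and 2 lower at 8 h past the test, with 8 higher by sign. Of the 2 higher genes 1 was Usp2, the sole member, which that difference had chosen. Ribosomal protein, oxidative phosphorylation and proteasome genes had 0 calls among 35, 35 and 30, with medians of 0.02, 0.00 and 0.00. The lists were drawn up with earlier results of these arrays known, so that the counts within them are a description.

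Promoter sequences were at hand for 81 of the 100 genes, in windows from 250 bases before to 50 bases after the start in RefSeq's annotation of GRCm38.p6. The E-box CACGTG, to which clock activators bind, was found in 9 of the 81 (11.1%) and in 12% of the bright genes with such a window, so that the genes did not stand out. The D-box letters TTATGTAA and TTACGTAA were in 0 of 81 (0.743% and 0.173% of bright genes), TAGGTCA in 1 (2.18%), TGACGTCA in 2 (3.74%), ACANNNTGT in 3 (5.03%), GAANNTTC in 7 (6.88%) and a pattern of the interferon-stimulated element, a pair of GAAA blocks 2 bases apart, in 4 (4.94%, against 3.55%). Both strands were searched, and a match describes letters and no binding. For each gene the stretch with the E-box nearest a start is shown, since it is where the known clock motif occurs, with the match in capitals (Fam214a had another match near a further start), read 5′ to 3′ on the gene's strand.
Arhgef39, chr4:43508833-43508878, minus strand: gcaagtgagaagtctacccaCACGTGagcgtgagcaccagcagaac
Tspan4, chr7:141476309-141476354, plus strand: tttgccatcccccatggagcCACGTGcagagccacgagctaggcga
Arrdc4, chr7:68749406-68749451, minus strand: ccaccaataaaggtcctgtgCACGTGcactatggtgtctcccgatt
Slc27a1, chr8:71570372-71570417, plus strand: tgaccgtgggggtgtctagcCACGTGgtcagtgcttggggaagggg
Bbc3, chr7:16310347-16310392, plus strand: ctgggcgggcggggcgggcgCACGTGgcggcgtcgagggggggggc
Fam214a, chr9:74952850-74952895, plus strand: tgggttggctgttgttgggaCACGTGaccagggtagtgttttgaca
Fkbp5, chr17:28486293-28486338, minus strand: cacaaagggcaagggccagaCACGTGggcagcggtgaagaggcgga
Eva1a, chr6:82041537-82041582, plus strand: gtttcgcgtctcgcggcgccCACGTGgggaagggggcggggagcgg
Pfkfb2, chr1:130715818-130715863, minus strand: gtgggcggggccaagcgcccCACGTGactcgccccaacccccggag
The promoter of Ifit3 held the interferon element pattern at 2 places, in capitals, read on the strand opposite to the pattern.
Ifit3, chr19:34583353-34583436, plus strand: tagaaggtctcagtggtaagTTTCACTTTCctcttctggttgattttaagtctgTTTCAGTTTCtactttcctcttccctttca

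The genes with an E-box differed among themselves. Tspan4 and Fkbp5, whose values are given above, had opposite shapes, with middle times 0.19 below and 0.14 above the mean of the end points. Arhgef39 had an injected minus naive value of -0.34 at 1 h, which did not pass the test. Bbc3 (a pro-apoptotic BH3 protein), Slc27a1 (a fatty acid carrier), Arrdc4 (an arrestin family member that lowers glucose uptake) and Pfkfb2 (an enzyme that steers glycolysis) had 8 h minus 1 h values of 0.25, 0.32, 0.25 and 0.13 in naive mice and 0.32, 0.28, 0.32 and 0.23 in injected mice.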

How the data were processed

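Striatal RNA was hybridised to Illumina MouseWG-6 arrays and read with BeadStudio 3.0 and the beadarray package (1.10.0), according to the study's methods. The deposited signals of 60 arrays are log2 values that the authors did not normalise between arrays, with array medians from 6.71 to 8.76. The authors' second deposited table is log2 after quantile normalisation, with medians of 7.72. The genes were chosen on the second table. Tests used the first one after quantile normalisation (median 7.57). The methods name background subtraction before that normalisation. Whether the first table had it is not given in the sources used here, and detection values were not used. Of the signal columns 0 were left unused.

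For 45281 probes, limma 3.58.1 under R 4.3.3 (with statmod 1.5.0) estimated the group means with chip as a random block (consensus correlation 0.201) and empirical Bayes, and 2-sided p-values were adjusted by Benjamini-Hochberg over all probes within each comparison, at a threshold of 0.05. P-values measure the spread between pools of 2 mice. The fit was tested on simulated data of 10000 probes: for injected minus naive, 86% of changes of 0.25 and 98% of changes of 0.5 were called, with 10 false calls, and for 4 h minus 2 h 57% and 93%, with 7 false calls. The simulated data held 100 changed probes of each size. In the real data 0.157% and 0.0861% of the 45281 probes were called in these comparisons. The adjustment there was thus probably stricter, and the percentages may overstate what the real tests could find.

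Of the probes 34885 had 1 gene symbol, 18 had several and 10378 were unnamed here. Bright genes are the 9968 with a probe mean of 8 or more. Named genes were the 15 with the largest selection value, the 3 on either side of the limit, those past a test or with the smallest p, the 5 extremes in naive mice and those on a gene list. Gh, Pmch, Usp18, Tmem86a's levels, Bbc3, Arrdc4, Slc27a1, Pfkfb2 and genes of single conditions outside that rule were added after their values were seen. The members, roles and lists were chosen with earlier results of these data known. Alternatives were the authors' normalised values, median centring, no or fixed chip term, z-scores within chips, a replicate term, bright probes alone, plain analysis of variance, other rules for the list and leaving out each array.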

Additional observations from a re-analysis of the deposited data

How the results depend on the processing

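Of 530 values of the single-gene calls in 10 alternatives, 372 stayed past the threshold, 158 did not and 0 changed direction. Counts of genes past the threshold moved as follows. With median centring they were 0 for 4 h minus 2 h, 4 for injected minus naive over the 4 times, 2 for fluoxetine and 9 for tianeptine minus naive, and 0 for tianeptine minus saline. Without a chip term they were 0, 3, 1, 12 and 0 for the same comparisons, and with plain analysis of variance 0, 1, 1, 5 and 0, and 0 for injected minus naive at 4 h. With z-scores within chips they were 0, 0, 0, 9 and 0, and 0 for the middle times against the end points and for injected minus naive at 4 h. With chip as a fixed block they were 7 for 4 h minus 2 h, 9 for the middle times, 2 for injected minus naive at 2 h and 2 at 4 h, 2, 3 and 18 for saline, imipramine and fluoxetine minus naive, and 1 and 4 for fluoxetine and tianeptine minus saline. Among bright probes alone, where fewer probes were tested, they were 10 for 4 h minus 2 h, 9 for the middle times, 2 for injected minus naive at 1 h and 8 at 2 h, 24 for injected minus naive over the 4 times, 2, 2, 22 and 42 for saline, imipramine, fluoxetine and tianeptine minus naive, and 1 and 4 for fluoxetine and tianeptine minus saline. The authors' normalised values gave 1 for saline minus naive. The cause was not tested for the other settings. Arrays with the same replicate number correlated in their deviations at a mean of 0.16, 0.16 and 0.07, with pairs down to -0.62, those with different numbers at -0.09 and arrays of the same chip at 0.43. Several chips held arrays mostly of 1 number, so that number and chip are partly tied, and the numbers were not taken as pairs. A replicate block gave 1 for saline minus naive, 1 for injected minus naive at 2 h, 4 for 4 h minus 2 h and 13 for injected minus naive over the 4 times.

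Leaving out each array gave counts of 1 to 6 for 4 h minus 2 h, 3 to 5 for the middle times, 0 to 1 for injected minus naive at 1 h, 0 to 2 at 2 h, 0 to 1 at 4 h, 0 to 0 at 8 h, 7 to 15 over the 4 times, 0 to 1 for saline, 0 to 2 for imipramine, 4 to 10 for fluoxetine and 19 to 30 for tianeptine minus naive, 0 to 2 for tianeptine minus saline and 0 to 0 for the differences in change between conditions and for imipramine and fluoxetine minus saline. The list kept 80 to 94 of its 100 genes. It kept 84 with the probe of largest difference, 93 on the quantile normalised signals used here, 98 and 91 with a mean of 7.5 or 8.5, 84 with chip as a fixed block and 78 without naive arrays, and, chosen after seeing the data, 81, 76, 78 and 72 without saline, imipramine, fluoxetine and tianeptine arrays. With 3 arrays a time in each condition, on other chips at 8 h than at 1 h, the course within a condition is known less well than the pooled one.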
